A study of Sus scrofa with 3 samples.

Results

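Immediate early genes and heat shock genes were described in kidney RNA of pigs. They were chosen by name, as rows of the count table whose gene symbol was among 40 listed symbols. The rule used no measured value, but the symbols were listed with earlier results of these data known. Of the 40 symbols, 33 were rows of the table, 21 of the 26 immediate early symbols and 12 of the 14 heat shock symbols, among 34570 genes in all. Another 4 were listed under a RefSeq synonym, namely JUN as C-JUN, CTGF as CCN2, HSPB1 as HSP27 and HSP90AB1 as HSPCB, and their values are given beside the 33 but kept out of the counts and medians unless stated. FOSB, JUND and GADD45A were not analysed here. The study compared Wuzhishan pigs, a Chinese miniature breed, aged 6 to 7 months, that all received feed rich in fat and cholesterol. The groups were castrated males given testosterone (CMT), castrated males without it (CM) and intact males (IM). Kidney RNA of 3 pigs was mixed in equal amounts for each group and sequenced as 1 library, so 9 pigs gave 3 libraries. Neither the testosterone dose nor the interval after castration nor the way of tissue collection was given in the sources used here.

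Immediate early genes are transcribed within minutes of a signal such as a growth factor, stretch or stress, without new protein synthesis. Many code for transcription factors (FOS, JUN, EGR1), and others for proteins that end the response, such as the phosphatase DUSP1 and the mRNA decay factor ZFP36. Heat shock genes code for chaperones that fold proteins and hold back their aggregation, and the factor HSF1 drives the inducible ones when unfolded protein builds up. In kidney both groups are known to respond to ischaemia and to the handling of tissue.

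Total counts were 13601475 in CMT, 18503537 in CM and 16459771 in IM, and levels are given in CPM, counts brought to a common library total with TMM factors. A difference is given as a fold with its exact 95% interval in parentheses, which covers counting error only. The word called is used of genes whose interval lies wholly beyond 2-fold. With 1 library per group there is no spread between pigs, no test and no p-value, and every difference is one between these pools. The 15472 genes with a mean of at least 1 CPM were compared, and all 33 members passed that filter. Ribosomal RNA took between 1.73% and 2.14% of the counts and mitochondrially encoded genes between 8.43% and 8.83%. Markers of the proximal tubule were abundant, with all 16 listed genes compared and a summed level of 34389 CPM in CMT, 26850.5 in CM and 27075 in IM. PCK1 gave 28.1% of those counts, and by gene 11 of the 16 had a log2 fold below 0 in CMT against CM, with CM the highest library for 11. PCK1 was called higher in CMT than in CM, 1 of 16 beside 1.84% of all compared genes. POAT1-1 was called higher in CM than in IM, 1 of 16 beside 1.2%. Counts per gene were not divided by transcript length, so levels are compared between libraries and not between genes.

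Most members of both sets stood lowest in CM, and FOS, JUN, EGR1 and ZFP36 had their highest level in CMT. In CMT against CM, 18 of 21 immediate early members and 10 of 12 heat shock members had a log2 fold above 0, against 49.3% of all compared genes. ZFP36, FOS and EGR1 were called higher among the immediate early members, and BAG3 among the heat shock members. That is 3 of 21 and 1 of 12, beside 1.84% of all compared genes called higher. In CMT against IM the log2 fold was above 0 for 17 of 21 and 8 of 12, beside 48.2% of all genes, and in CM against IM for 5 of 21 and 2 of 12, beside 49.3%. No member was called lower in CMT than in CM, where 1.11% of all genes were. In CMT against IM, ZFP36 and FOS were called higher, 2 of 21, and no heat shock member was, beside 0.905% of all genes. In CM against IM no member of either set was called in a direction, beside 1.2% of all genes called higher and 1.52% called lower. All 3 comparisons share libraries, so a low level in CM enters both CMT against CM and CM against IM. In pooled tissue, fewer cells of a type and less RNA per cell cannot be told apart.

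**Figure D1:**
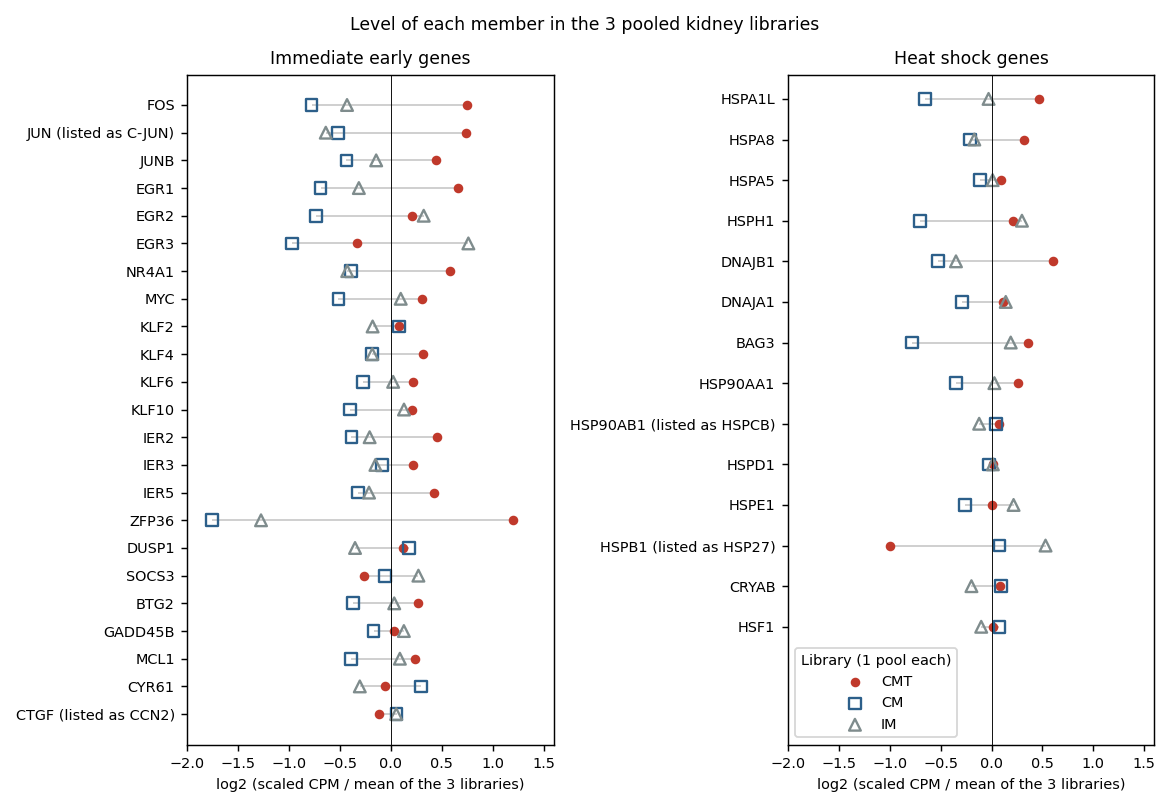
Level of each immediate early and heat shock gene in the CMT, CM and IM libraries, as the log2 of its scaled CPM over the mean of the 3 libraries; each point is 1 pooled library. CM is the lowest library for 15 of 21 immediate early members and 10 of 12 heat shock members listed by symbol, and CMT lies far to the right for FOS, JUN, EGR1 and ZFP36.

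FOS, JUN and JUNB, subunits of the dimeric transcription factor AP-1, were all highest in CMT. FOS had 1276 counts (96.4 CPM) in CMT, 633 (33.5 CPM) in CM and 706 (42.6 CPM) in IM. CMT stood above both other libraries, called higher than CM by 2.88-fold (2.62 to 3.17) and higher than IM by 2.26-fold (2.06 to 2.48), while CM was lower than IM by 1.27-fold (1.14 to 1.42). The call of FOS against IM was lost with plain library totals, where the fold was 2.19. JUN, the partner of FOS listed as C-JUN, had 1581 counts (119 CPM) in CMT, 945 (49.99 CPM) in CM and 763 (46.1 CPM) in IM, and CMT was called higher than CM by 2.39-fold (2.20 to 2.59) and higher than IM by 2.59-fold (2.38 to 2.83). Its CM and IM libraries did not differ beyond counting error, at 1.08-fold (0.985 to 1.19) for CM over IM. JUNB, which can replace JUN in the dimer, had 971 counts (73.4 CPM) in CMT, 754 (39.9 CPM) in CM and 809 (48.9 CPM) in IM. It followed FOS in the order of the libraries, with 1.84-fold (1.67 to 2.03) for CMT over CM and 1.501-fold (1.37 to 1.65) for CMT over IM, neither of which was called.

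The EGR genes code for zinc finger transcription factors induced by growth factors. EGR1, EGR2 and EGR3 were each lowest in CM but differed in their highest library. EGR1 had 1812 counts (137 CPM) in CMT, 1016 (53.7 CPM) in CM and 1155 (69.8 CPM) in IM. CMT was called higher than CM by 2.55-fold (2.36 to 2.75), and its 1.96-fold (1.82 to 2.11) over IM fell short of the call. EGR2 gave 39 counts in CMT, 29 in CM and 53 in IM, and EGR3 gave 12 counts in CMT, 11 in CM and 32 in IM. These low counts were highest in IM, unlike EGR1. CM was lower than IM by 2.09-fold (1.303 to 3.404) for EGR2 and by 3.32-fold (1.63 to 7.30) for EGR3, neither called at this depth. CMT was above CM by 1.92-fold (1.16 to 3.22) for EGR2. For EGR3, CMT and CM did not differ beyond counting error, at 1.56-fold (0.629 to 3.90) for CMT over CM. CMT and IM could not be separated for EGR2, at 0.921-fold (0.593 to 1.42) for CMT over IM, whereas EGR3 was lower in CMT than in IM by 2.13-fold (1.07 to 4.54), an interval that reaches close to 1.

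A further pair of transcription factors, the orphan nuclear receptor NR4A1 and the growth regulator MYC, were also highest in CMT. NR4A1, on a row typed as non-coding RNA although the gene codes for a protein, had 822 counts (62.1 CPM) in CMT, 597 (31.6 CPM) in CM and 510 (30.8 CPM) in IM. CM and IM did not differ beyond counting error, at 1.03-fold (0.909 to 1.16) for CM over IM. CMT stood at 1.97-fold (1.77 to 2.19) over CM and 2.02-fold (1.80 to 2.26) over IM, both intervals reaching below 2-fold. MYC had 16.8 CPM in CMT, 9.52 in CM and 14.6 in IM. Here CM stood alone, lower than IM by 1.53-fold (1.25 to 1.86), while CMT over IM was 1.15-fold (0.956 to 1.39) and did not differ beyond counting error.

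Among the Krüppel-like factors, which bind GC-rich promoters, no gene was called in any comparison. KLF6 stood at 64.7 CPM in CMT, 46.0 in CM and 56.6 in IM, and KLF4 at 17.4 CPM in CMT, 12.3 in CM and 12.3 in IM. CMT was above CM by 1.41-fold (1.28 to 1.55) for KLF6 and by 1.42-fold (1.17 to 1.71) for KLF4. CM was below IM for KLF6, whereas CM and IM did not differ beyond counting error for KLF4, at 0.996-fold (0.822 to 1.21). KLF2, known from endothelium under flow, stood at 23.4 CPM in CMT, 23.4 in CM and 19.5 in IM. CMT and CM did not differ beyond counting error for KLF2, at 1.002-fold (0.863 to 1.16), and both lay above IM, CMT by 1.20-fold (1.02 to 1.41) and CM by 1.20-fold (1.04 to 1.39). KLF10, a gene induced by TGF-beta, gave 16 counts in CMT, 15 in CM and 19 in IM, too few to separate any pair of libraries.

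The IER genes are named for their immediate early response. IER2, a nuclear protein, stood at 68.0 CPM in CMT, 37.9 in CM and 42.9 in IM, with CMT above CM by 1.80-fold (1.63 to 1.98) and above IM by 1.59-fold (1.44 to 1.75). IER3, which affects cell survival, stood at 72.6 CPM in CMT, 58.7 in CM and 56.2 in IM, and IER5 at 8.08 CPM in CMT, 4.81 in CM and 5.19 in IM. All 3 were highest in CMT, IER3 by the least, at 1.24-fold (1.13 to 1.35) over CM, and IER5 by 1.68-fold (1.26 to 2.25). None was called.

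**Figure D2:**
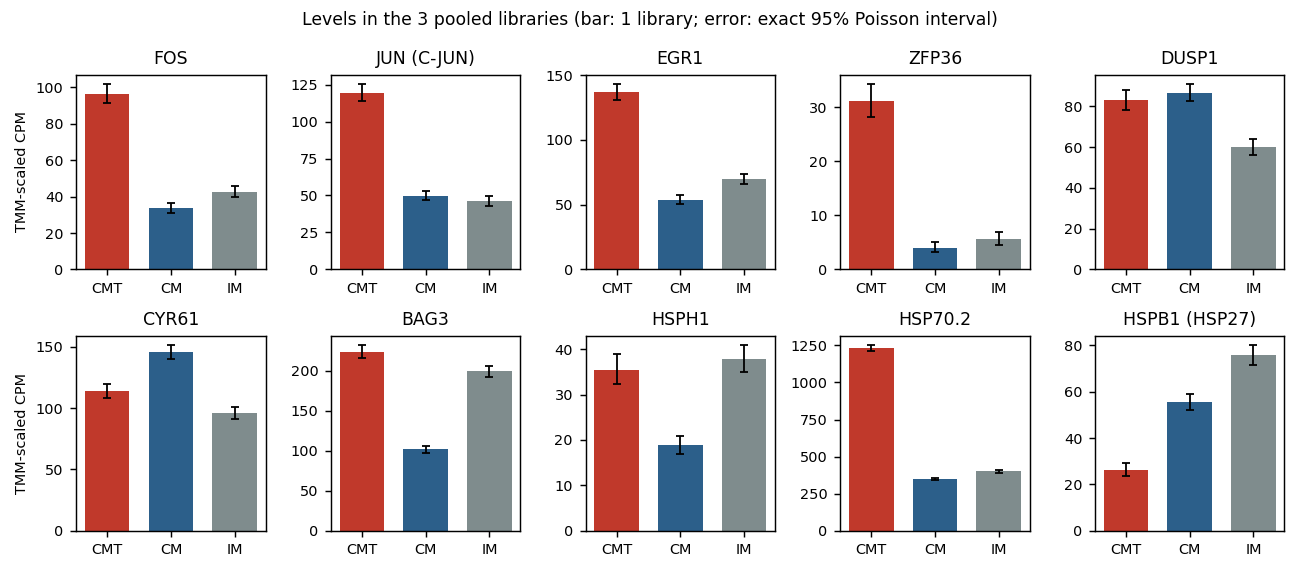
Scaled CPM of 10 genes in the CMT, CM and IM libraries; each bar is 1 pooled library and the error bar its exact 95% Poisson interval, which covers counting error only. ZFP36 stands at 31.2 CPM in CMT against 4.02 in CM and 5.62 in IM, BAG3 and HSPH1 are low in CM alone, and HSPB1 is low in CMT.

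The genes whose products restrain signalling and growth had different orders of the libraries. ZFP36, tristetraprolin, which binds AU-rich mRNAs and speeds their decay, had 413 counts (31.2 CPM) in CMT, 76 (4.02 CPM) in CM and 93 (5.62 CPM) in IM. It had the largest fold of the 33 members in both comparisons of CMT, 7.76-fold (6.06 to 10.05) over CM and 5.56-fold (4.43 to 7.03) over IM. DUSP1, a phosphatase that switches off MAP kinases, had 1100 counts (83.1 CPM) in CMT, 1639 (86.7 CPM) in CM and 993 (60.0 CPM) in IM. IM was its lowest library, CMT and CM did not differ beyond counting error, at 0.959-fold (0.887 to 1.04), and CM was above IM by 1.45-fold (1.34 to 1.57). SOCS3, an inhibitor of JAK-STAT signalling, stood at 8.31 CPM in CMT, 9.58 in CM and 12.02 in IM. It was the 1 member of the 33 with its lowest level in CMT, beside 33.5% of all genes, and CMT was lower than IM by 1.45-fold (1.14 to 1.84).

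BTG2, an antiproliferative gene, stood at 93.8 CPM in CMT, 60.1 in CM and 79.6 in IM, and MCL1, which protects cells from apoptosis, at 263 CPM in CMT, 170.3 in CM and 238 in IM. Both had CM lowest, with CMT over CM at 1.56-fold (1.44 to 1.69) for BTG2 and 1.55-fold (1.47 to 1.62) for MCL1, and CM lower than IM by 1.32-fold (1.22 to 1.43) and 1.40-fold (1.33 to 1.46). GADD45B, a stress gene, stood at 20.5 CPM in CMT, 17.8 in CM and 21.9 in IM, and of its 3 pairs of libraries CM and IM were apart beyond counting error, CM being lower by 1.23-fold (1.06 to 1.43). None of these 3 was called.

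CYR61 and CTGF code for matricellular proteins of the CCN family and are known targets of the coactivator YAP1. CYR61 had 1508 counts (114 CPM) in CMT, 2755 (146 CPM) in CM and 1587 (95.8 CPM) in IM, and CTGF, listed as CCN2, had 1445 counts (109 CPM) in CMT, 2320 (123 CPM) in CM and 2028 (122 CPM) in IM. For both CM was the highest library, whereas FOS and EGR1 were lowest in CM. CYR61 was the 1 immediate early member of the 21 above both other libraries in CM with intervals clear of 1, beside 11.5% of all genes, by 1.52-fold (1.43 to 1.62) over IM and with CMT lower than CM by 1.28-fold (1.20 to 1.36). CTGF did not differ between CM and IM beyond counting error, and CMT was lower than CM by 1.12-fold (1.05 to 1.20).

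Heat shock members also stood lowest in CM for the most part, and 1 of the 12 was called. The HSP70 family binds unfolded protein. HSPA8, its constitutive cytosolic form, had 4840 counts (366 CPM) in CMT, 4788 (253 CPM) in CM and 4317 (261 CPM) in IM. CM and IM did not differ beyond counting error, and CMT was above CM by 1.44-fold (1.39 to 1.503). HSPA5, the BiP chaperone of the endoplasmic reticulum, had 5795 counts (438 CPM) in CMT, 7168 (379 CPM) in CM and 6838 (413 CPM) in IM, with 1.15-fold (1.12 to 1.20) for CMT over CM and 0.918-fold (0.888 to 0.949) for CM over IM. HSPA1L, an HSP70 gene known best from testis, gave 78 counts in CMT, 51 in CM and 69 in IM, and its 2.18-fold (1.52 to 3.17) for CMT over CM was not called. HSPH1, an HSP110 that recharges HSP70 with ATP, had 470 counts (35.5 CPM) in CMT, 357 (18.9 CPM) in CM and 626 (37.8 CPM) in IM. CM alone was low for HSPH1, by 2.002-fold (1.76 to 2.29) against IM, and CMT and IM did not differ beyond counting error, at 0.939-fold (0.832 to 1.06) for CMT over IM.

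Among the co-chaperones of HSP70 was the single call of the heat shock members. BAG3, which links HSP70 to autophagy and is a strong HSF1 target, had 2960 counts (224 CPM) in CMT, 1923 (102 CPM) in CM and 3300 (199 CPM) in IM. CMT was called higher than CM by 2.20-fold (2.08 to 2.33), a call lost with plain library totals, where the fold was 2.09. Between CM and IM, BAG3 was lower in CM by 1.96-fold (1.85 to 2.07), short of the call, and CMT was above IM by 1.12-fold (1.07 to 1.18). DNAJB1, the stress-inducible J-domain protein, had 907 counts (68.5 CPM) in CMT, 590 (31.2 CPM) in CM and 585 (35.3 CPM) in IM. Its order was that of FOS, with CMT above CM by 2.20-fold (1.98 to 2.44) and above IM by 1.94-fold (1.75 to 2.16), the first interval starting just below 2-fold. DNAJA1, the J-domain partner of constitutive HSP70, stood at 125 CPM in CMT, 94.0 in CM and 127 in IM, with CM lower than IM by 1.35-fold (1.27 to 1.44) and no difference beyond counting error between CMT and IM.

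HSP90 stabilises kinases and steroid receptors, the androgen receptor among them. HSP90AA1, its inducible form, had 10324 counts (780.0 CPM) in CMT, 9703 (513 CPM) in CM and 11027 (666 CPM) in IM, whereas HSP90AB1, its constitutive form listed as HSPCB, had 10006 counts (756 CPM) in CMT, 14010 (741 CPM) in CM and 10949 (661 CPM) in IM. The inducible form was lowest in CM, with 1.52-fold (1.48 to 1.56) for CMT over CM, while the constitutive form was lowest in IM and did not differ between CMT and CM beyond counting error, at 1.02-fold (0.994 to 1.05). HSPD1 and HSPE1 form the chaperonin of the mitochondrial matrix. HSPD1 stood at 423 CPM in CMT, 413 in CM and 424 in IM, with no pair of libraries apart beyond counting error, while HSPE1 stood at 187 CPM in CMT, 155 in CM and 217 in IM, with CM below IM by 1.39-fold (1.33 to 1.46). The HSP70, HSP90 and chaperonin genes have close copies or pseudogenes, and the sources used here do not give how reads shared among them were counted.

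The small heat shock proteins hold unfolded protein without ATP, and HSPB1 and CRYAB are the ones measured here. HSPB1, listed as HSP27, had 347 counts (26.2 CPM) in CMT, 1047 (55.4 CPM) in CM and 1255 (75.8 CPM) in IM. It was lowest in CMT, called lower than in IM by 2.89-fold (2.57 to 3.27), and against CM lower by 2.11-fold (1.87 to 2.39), short of the call. Of all genes, 0.595% were called lower in CMT than in IM. CRYAB, alpha-B crystallin, had 2258 counts (171 CPM) in CMT, 3245 (172 CPM) in CM and 2322 (140.2 CPM) in IM. CMT and CM did not differ beyond counting error for CRYAB, and both lay above IM, CMT by 1.22-fold (1.15 to 1.29). HSF1, the regulator of heat shock transcription, stood at 63.5 CPM in CMT, 66.2 in CM and 58.5 in IM. Its CMT library did not differ beyond counting error from either of the others, while CM was above IM by 1.13-fold (1.04 to 1.23).

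**Figure D3:**
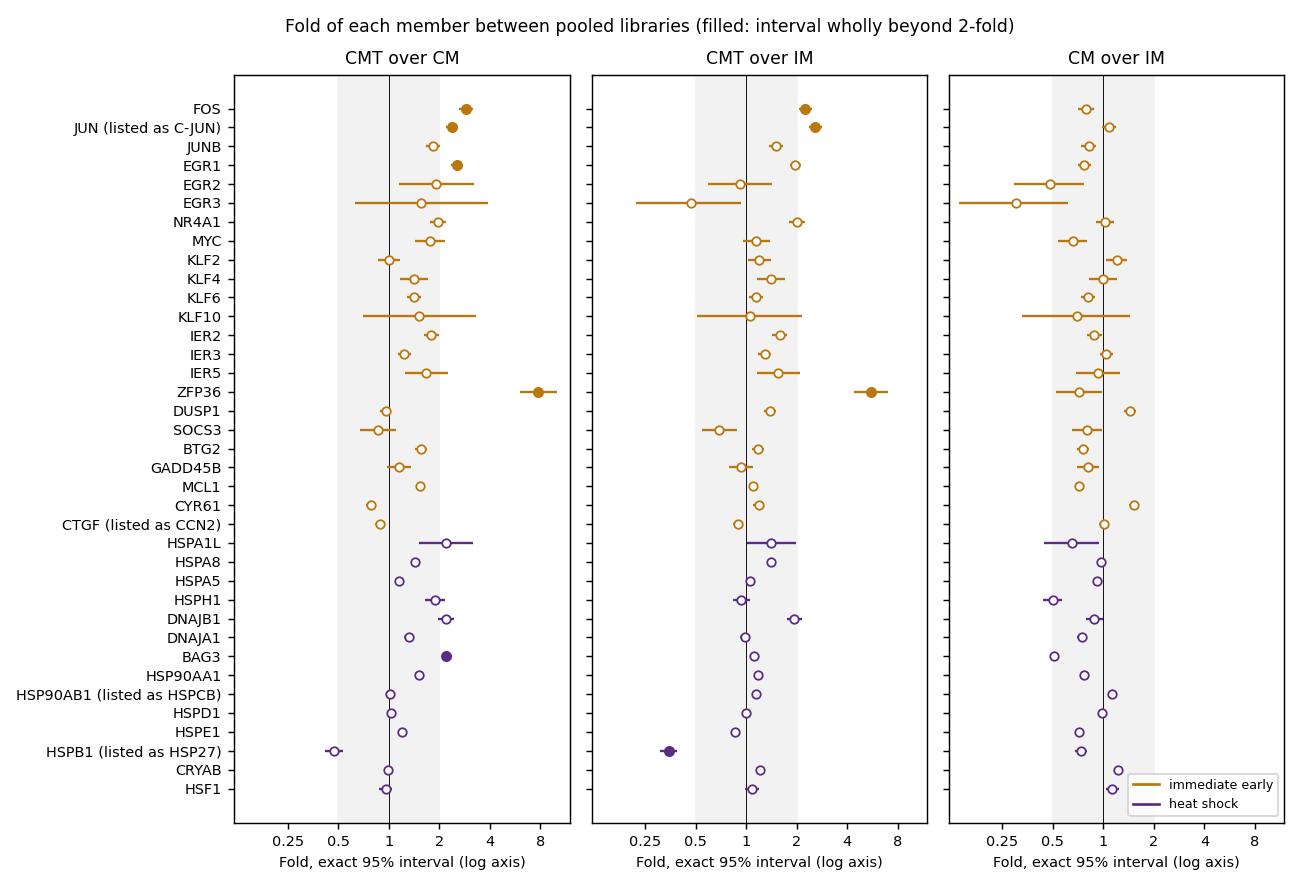
Fold of each member for CMT over CM, CMT over IM and CM over IM on a log axis, with exact 95% intervals of counting error; filled points have an interval wholly beyond 2-fold and the grey band spans folds of 0.5 to 2. Filled points are FOS, JUN, EGR1, ZFP36 and BAG3 for CMT over CM, FOS, JUN and ZFP36 together with the lower HSPB1 for CMT over IM, and none for CM over IM.

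Set side by side, both sets had medians below 0 in CM against IM and above 0 in CMT against CM. In CM against IM the median log2 fold was -0.30 over the 21 immediate early members and -0.28 over the 12 heat shock members, where that of all compared genes was within 0.01 of 0. In CMT against CM it was 0.63 and 0.47, with a value within 0.01 of 0 for all genes. In CMT against IM, the comparison that does not involve CM, it was 0.26 and 0.14, with -0.01 for all genes. Immediate early members lay there between -0.997 for EGR3 and 2.45 for ZFP36, against -0.21 for HSPE1 and 0.95 for DNAJB1. Leaving out the 7 heat shock members of families with close copies, the 5 others had a median of 0.91 in CMT against CM, and with HSPB1 and HSP90AB1 added it was 0.34 over 14. The difference between the sets was not tested, and JUN is not in these medians.

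The order of the libraries was read as well. CM was lowest for 15 of 21 immediate early members and 10 of 12 heat shock members, beside 35.8% of all compared genes. With both intervals clear of 1, CM lay below both other libraries for 10 of 21 and 8 of 12, beside 12.9% of all genes and 18% of those of at least 10 CPM, the range that held 16 and 11 of the members. EGR2 and HSPA1L, counted among the 10 and the 8, had means below 10 CPM. CMT was highest for 15 of 21 immediate early members and 6 of 12 heat shock members, beside 31% of all genes. It lay above both others with intervals clear of 1 for 12 of 21 and 6 of 12, beside 9.08% of all genes and 12.4% of those of at least 10 CPM. IER5 and HSPA1L, counted among the 12 and the 6, had means below 10 CPM. BTG2, MCL1, FOS and BAG3 were among those that met both descriptions. CM was the highest library for DUSP1, CYR61, HSF1 and CRYAB, 4 of 33, beside 35.8% of all genes.

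Summed over the members, immediate early genes stood at 1259 CPM in CMT, 848 in CM and 919 in IM, and heat shock genes at 2886 CPM in CMT, 2200.5 in CM and 2582 in IM. CMT was above CM by 1.48-fold for the immediate early sum and by 1.31-fold for the heat shock sum. MCL1 gave 22.2% of the counts of the one sum and HSP90AA1 25.3% of the other, so abundant members weigh most in them.

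Early response genes beyond the members were read from a list of 66 symbols, of which 64 matched a row and 57 were compared. In CMT against CM, 49 of the 57 had a log2 fold above 0, beside 49.3% of all genes, with a median log2 fold of 0.44. Of the 57, 6 were called higher, beside 1.84% of all genes, and none lower, beside 1.11%. DUSP10, a MAP kinase phosphatase, had 188 counts in CMT, 28 in CM and 69 in IM, a fold of 9.59-fold (6.42 to 14.8) over CM and 3.41-fold (2.57 to 4.56) over IM. GADD45G, a relative of GADD45B, had 1674 counts in CMT, 664 in CM and 877 in IM, and MAFF, a small MAF transcription factor, had 363 counts in CMT, 176 in CM and 216 in IM. CMT stood above CM by 3.60-fold (3.29 to 3.95) for GADD45G and by 2.95-fold (2.45 to 3.55) for MAFF. The other 3 were chosen for naming after their values were seen. They were NR4A3, a relative of NR4A1 listed as NOR-1, at 3.45-fold (2.32 to 5.24), the transcription factor KLF11 at 2.53-fold (2.25 to 2.85), and ATF3, a stress-induced partner of JUN on a row with a numbered identifier, at 2.45-fold (2.24 to 2.67).

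Against IM the same list had 50 of 57 genes above 0, beside 48.2% of all genes, and a median log2 fold of 0.43. None was called lower in CMT, beside 0.595% of all genes, and 4 were called higher, beside 0.905%. These were DUSP10, GADD45G and NFKBIA, the inhibitor of NF-kappa-B, at 2.29-fold (2.09 to 2.52), and, named after its values were seen, NR4A3 at 3.11-fold (2.08 to 4.74). In CM against IM the median was 0.03, beside -0.30 for the immediate early members. None of the 57 was called there, beside 1.2% of all genes called higher and 1.52% lower. Kinases, coactivators and factors upstream of the early response, 29 compared genes among them SRF, ELK1 and YAP1, had medians near 0. These were 0.03 for CMT against CM, -0.04 for CMT against IM and 0.00 for CM against IM. None of the 29 was called in any comparison, beside 0.595% to 1.84% of all genes called per direction.

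Among 52 further compared chaperones and co-chaperones of the cytosol, HSP70.2 had the largest fold in CMT against CM, the gene that RefSeq equates with HSPA1A and HSPA1B, the classical heat-inducible HSP70. HSP70.2 had 16312 counts (1232 CPM) in CMT, 6583 (348 CPM) in CM and 6649 (402 CPM) in IM. CM was below IM by 1.15-fold (1.11 to 1.19), and CMT was called higher than CM by 3.54-fold (3.44 to 3.64) and higher than IM by 3.07-fold (2.98 to 3.16). Near-identical copies of the gene may have shared its reads. Another row of the list, named HSP70, was highest in CMT but lowest in IM, and it was not called in any comparison. Its CMT library did not lie above both others with intervals clear of 1. HSPB6, a small heat shock protein of muscle on a row with a numbered identifier, went another way with 214 counts in CMT, 913 in CM and 297 in IM, called lower in CMT than in CM by 2.99-fold (2.57 to 3.48) and higher in CM over IM by 2.69-fold (2.36 to 3.08). These were the only calls of the list in the 3 comparisons, each of them 1 gene of 52. Of all genes, 1.84% were called higher for CMT over CM and 1.11% lower. The shares called higher were 0.905% for CMT over IM and 1.2% for CM over IM. No gene of the list was called lower for CMT over IM or for CM over IM, beside 0.595% and 1.52% of all genes. The medians of the list were 0.15 for CMT against CM, 0.01 for CMT against IM and -0.17 for CM against IM.

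Chaperones of the endoplasmic reticulum, where HSPA5 works, and of the mitochondrion, where HSPD1 and HSPE1 work, gave medians closer to 0 than the heat shock members in CMT against CM and in CM against IM. For 28 compared genes of the reticulum list the median log2 fold was 0.14 in CMT against CM, 0.00 in CMT against IM and -0.11 in CM against IM. For 10 mitochondrial chaperones it was -0.08, 0.05 and 0.07 in that order. No gene of either list was called in any of the 3 comparisons, beside 0.595% to 1.84% of all genes called per direction. Lists of 28 and 10 genes are short for shares of that size.

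**Figure D4:**
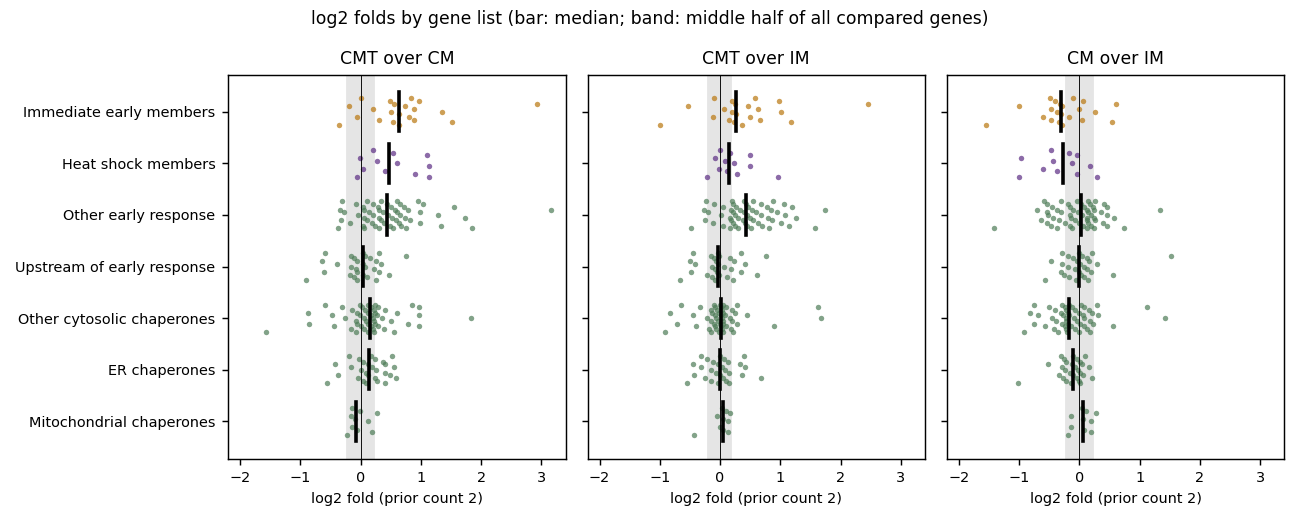
log2 folds (prior count of 2) of the members and of related gene lists for CMT over CM, CMT over IM and CM over IM; each point is a gene, the black bar the median of the list and the grey band the range between the quartiles of all 15472 compared genes. The medians of the early response lists lie to the right of the band in both comparisons of CMT, at 0.63 and 0.44 over CM, while the medians of the mitochondrial chaperones lie within it.

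Markers of other cell types were read beside these results. The lymphocyte list summed to 75.9 CPM in CMT, 183 in CM and 69.6 in IM, led by IGJ with 44.1% of its counts, and CM was its highest library. Of its 13 compared genes, 3 were called lower in CMT than in CM, CD79A, CD247 and IGJ, beside 1.11% of all genes. In CM against IM, 2 were called higher, IGJ and MZB1, beside 1.2%. Myeloid markers summed to 203 CPM in CMT, 167 in CM and 129.7 in IM, C1QC giving 37.9% of the counts. By gene, CMT was highest for 9 of 11 compared, beside 31% of all genes, and CM lowest for 6, beside 35.8%. S100A12, a granulocyte gene, had 87 counts in CMT, 5 in CM and 7 in IM. It was called higher in CMT over CM and over IM, 1 of 11 beside 1.84% and 0.905% of all genes. CSF3R, of the same list, was highest in IM and lowest in CM and was not called. Red blood cell markers summed to 182 CPM in CMT, 141 in CM and 122 in IM, with 3 of 6 compared. Podocyte markers summed to 427 CPM in CMT, 399.9 in CM and 367 in IM, with none of 8 called in any comparison. Markers of the loop of Henle and distal tubule summed to 9496 CPM in CMT, 8167 in CM and 7232 in IM, UMOD on a row with a numbered identifier giving 82.7% of the counts, and 5 of the 9 stood lowest in CM. PVALB1, 1 of the 9, was called lower than in IM in CM, beside 1.52% of all genes, and in CMT, beside 0.595%. The sums of these 4 lists, the myeloid, red blood cell, podocyte and loop of Henle ones, were highest in CMT and lowest in IM. Collecting duct markers summed to 1746 CPM in CMT, 2108 in CM and 1820.2 in IM, the lowest sum being in CMT. SLC26A4, 1 of 11 compared, was called lower in CM than in IM, beside 1.52% of all genes. It was also called higher in CMT than in CM, beside 1.84%. The part of these lists in the results was not tested. Endothelial markers, of the cells from which KLF2 is known, summed to 772 CPM in CMT, 758 in CM and 793 in IM, and none of 9 compared was called. Markers of smooth muscle, pericytes and fibroblasts, which express CRYAB and CYR61, summed to 1109.6 CPM in CMT, 1154 in CM and 1363 in IM, with none of 14 called. Skeletal muscle and fat markers summed to 33.6 CPM in CMT, 30.7 in CM and 41.98 in IM, with 4 of 11 compared, and CKM gave 62.4% of the counts. These 4 had log2 folds below 0 in CM against IM, with a median of -0.39 and none called, the direction of most members, and their part in the results was not tested. MB, ADIPOQ and LEP were at 0 counts in every library. Beside the marker lists with none called, 0.595% to 1.84% of all genes were called per direction and comparison.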

How the data were processed

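Kidney RNA was sequenced as 1 library each for CMT, CM and IM, pooled from 3 pigs. Per the labels' protocols, TRIzol was used for extraction and an Ion Total RNA-Seq kit for the libraries, whereas the series' design text names an Illumina sequencer and triplicates; the table has 1 column per group. The deposited values are whole-number counts per gene, made by the authors. Aligner, counter, genome build and strand setting: not given in the sources used here. FastQC is named in the submitters' processing notes. A further column of values with no name was not used, 1 in all.

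Counts were scaled with TMM factors from edgeR 4.0.16 under R 4.3.3. Genes with a mean of at least 1 scaled CPM were compared. Folds are ratios of scaled counts, with exact 95% Clopper-Pearson intervals from SciPy 1.17.1 under Python 3.11.15, and log2 folds use a prior count of 2. Levels have exact Poisson intervals. Intervals cover counting error only, and reads are not independent molecules. A call needs the interval wholly beyond 2-fold. The calculation was tested on simulated Poisson counts without differences between pigs, which cannot measure false calls between real pools. No replicates exist, so no test, standard error or p-value was computed.

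Every member was named with its values. Of each other list, up to 3 higher and 3 lower called genes with the interval bound farthest from 1 were named, and exceptions are stated. The members and lists were chosen with earlier results of these data known. A RefSeq table of genes was used for synonyms only. Alternatives were plain library totals, RLE size factors, totals without ribosomal RNA and mitochondrial genes, thinning to the smallest library, filters of 10 CPM or none, a prior count of 0.5, 99% intervals, a 1.5-fold call, and members without close copies. Adding synonyms, and the alternatives for the library orders and sums, were chosen after seeing the data.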

Additional observations from a re-analysis of the deposited data

How the results depend on the processing

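No paired analysis was possible because each group is 1 pooled library. No direction of a member count, median or call reversed under the alternatives run. A call beyond 1.5-fold raised the immediate early members called higher from 3 to 6 for CMT over CM, from 2 to 4 for CMT over IM, and those called lower in CM than in IM to 1, EGR3. It raised the heat shock members called higher to 4 for CMT over CM, to 1 for CMT over IM, and those called lower in CM than in IM to 2, BAG3 and HSPH1. With plain library totals, and with totals without ribosomal RNA and mitochondrial genes, BAG3 lost its call over CM, leaving 0 heat shock members, and FOS lost its call over IM, leaving 1 immediate early member. Adding members listed under synonyms gave 1 heat shock member called lower in CMT than in IM, HSPB1. The heat shock median log2 fold in CMT against CM was 0.34 with those added and 0.91 without close copies.

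Among all 15472 compared genes, a 1.5-fold call gave 570 higher and 404 lower for CMT over CM, 356 and 223 for CMT over IM, and 434 and 529 for CM over IM. The filter of 10 CPM gave 166 and 69, 70 and 29, and 91 and 125 in the same order, because fewer genes were compared. In place of the sums with TMM factors, plain totals gave immediate early sums of 1225 CPM in CMT and 867 in CM, and heat shock sums of 2809 CPM in CMT and 2248 in CM. Totals without ribosomal RNA and mitochondrial genes gave immediate early sums of 1370 CPM in CMT, 969 in CM and 1032 in IM, and heat shock sums of 3141 CPM in CMT, 2513 in CM and 2902 in IM, since a smaller total makes each count worth more. The other 231 summary values stayed within 1.5 times or within their interval. Counts under about 50, as for EGR3 and KLF10, leave wide intervals at this depth, and differences between pigs cannot be read from pools.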
